A study of Penicillium oxalicum with 9 samples.

Results

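Deletion of the gene POX01907 in the filamentous fungus Penicillium oxalicum was examined by RNA sequencing of mycelium. Strain MuPOX01907, named for the deleted gene, was set against strain Ku70, which the sample titles also call a mutant. Each strain had 3 libraries labelled F, S and T. These are 6 of the 9 libraries of the study, chosen by the strain given in the labels, and all 9834 gene IDs of the deposited tables were taken. The other 3 libraries come from MuPOX08340, a mutant of the gene POX08340. They are used here to place the values, and the main test includes them when choosing genes, scaling libraries and estimating the spread. All 9 libraries were collected at 24 h. Sample titles give starch at 1% as the carbon source of MuPOX01907 and MuPOX08340, and Avicel, a microcrystalline cellulose, at 1% for Ku70. The growth protocol is the same text for all 9 libraries, names Avicel as the carbon source and starts from spores of MuKu70. Strain and stated medium thus go together, and an effect of the deletion and an effect of the medium cannot be told apart in any difference between MuPOX01907 and Ku70. The labels give neither the number of clones per mutant nor whether the libraries of a strain were separate cultures.

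As background, Penicillium oxalicum secretes enzymes that break down cellulose, xylan and starch outside the cell. Transcription factors switch the genes of these enzymes on and off according to the carbon source, and the study asked about such factors for amylase genes. Ku70 is a protein of non-homologous end joining, and fungal strains without it take up deletion constructs by homologous recombination more readily. In filamentous fungi the genes of a biosynthetic pathway often sit next to each other on the chromosome and are transcribed together.

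The Ku70 library F stood apart from its group. Across the 8589 genes tested, which are not independent replicates, log2 CPM, counts scaled to library size with TMM factors, correlated at 0.887 between Ku70 F and S and at 0.873 between Ku70 F and T. The same correlation was 0.979 between Ku70 S and T, and 0.982 to 0.992 among the MuPOX01907 libraries. Between MuPOX01907 and Ku70 libraries it ranged from 0.801 to 0.911. In Ku70 F, 103 tested IDs with at least 10 FPKM there exceeded Ku70 S and T both by 8-fold or more. There were 90 that lay 8-fold or more under both and had at least 10 FPKM in Ku70 S or T. Values under 0.1 FPKM were set to 0.1 for these counts. Sample titles give all 3 Ku70 libraries the same medium and time. Yet the median of 8 cellulase IDs described below was 1.66 to 3.40 FPKM in MuPOX01907, and Ku70 F had 1159 FPKM where Ku70 S had 2.52 and Ku70 T 2.28 FPKM. Whether the 3 Ku70 libraries shared the stated medium was not tested, and this limits what Ku70 on Avicel means in every comparison. Most results below are therefore also given with Ku70 F left out. The contrasts of MuPOX01907 with MuPOX08340 were fitted only with all libraries. Total expected counts, which are estimated reads per gene, were 14476140 to 14751595 in MuPOX01907 and 14649139 to 14802260 in Ku70.

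Transcripts of the deleted gene were nearly absent from the mutant. POX01907 had 0.01, 0.01 and 0.04 FPKM in MuPOX01907 F, S and T, against 22.87, 17.08 and 16.52 FPKM in Ku70. FPKM is a level per length: fragments divided by gene length and by the size of the library. Behind the MuPOX01907 values stood 1, 1 and 3 expected counts, against 1876, 1391 and 1346 in Ku70, so the groups did not overlap. MuPOX08340, which should retain the gene, had 24.2, 20.4 and 19.9 FPKM. The log2 fold change of MuPOX01907 over Ku70 was -9.44 ± 0.335 (SE) in edgeR's quasi-likelihood test, with a Benjamini-Hochberg adjusted p of 1.38e-06, and -9.26 without Ku70 F. The labels of these libraries and the data thus match for the targeted gene.

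The gene deleted in the third strain was lower in MuPOX01907. POX08340 had 8.26, 8.01 and 7.28 FPKM in MuPOX01907, against 30.62, 35.67 and 30.61 FPKM in Ku70. Every MuPOX01907 library lay below every Ku70 library. The log2 fold change was -1.73 ± 0.145 (SE), with an edgeR adjusted p of 0.000258, and -1.75 with an adjusted p of 0.000217 without Ku70 F. MuPOX08340 had 0 expected counts of it in all 3 libraries.

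**Figure D1:**
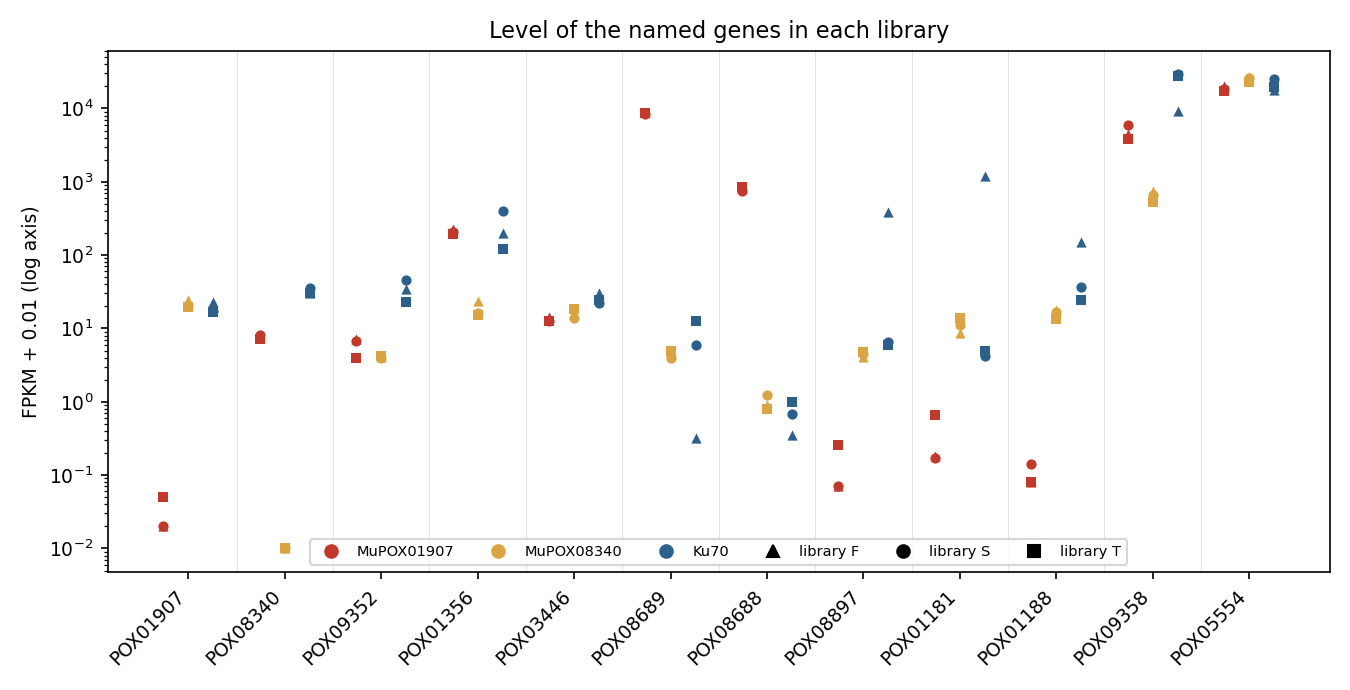
FPKM plus 0.01 on a log axis for the named genes in each library of MuPOX01907, MuPOX08340 and Ku70, with the library letter as the marker and 1 point per library. The points of POX08689 and POX08688 in MuPOX01907 lie above all others of those genes, whereas for POX08897, POX01181 and POX01188 the Ku70 F triangle lies above Ku70 S and T.

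Across the transcriptome, more genes fell than rose in MuPOX01907. Of 8589 genes tested, 808 rose (9.41% of those tested) and 1066 fell (12.4%) relative to Ku70. A gene counted as called where the edgeR adjusted p was under 0.05 and the change was at least 2-fold. Without Ku70 F, 857 rose (9.98%) and 1010 fell (11.8%). Of the calls made with all libraries, 705 rises (87.3%) and 842 falls (79.0%) were called the same way without Ku70 F. The other 103 rises and 224 falls were not, while 152 rises and 168 falls were called only without it. Of the 224 falls lost, 50 were among the IDs described above that Ku70 F held at least 8-fold above Ku70 S and T. Of the same 224, 15 had a positive log2 fold change once Ku70 F was left out.

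The libraries of both strains separated for most called genes. In scaled CPM, every MuPOX01907 library lay above every Ku70 library for 800 of the 808 rises, and below for 992 of the 1066 falls. Over all tested genes such a separation was found for 26.3% upwards and 26.2% downwards. Without Ku70 F it held for 855 of 857 rises and 1005 of 1010 falls, beside 32.6% and 35.3% of all tested genes. Separation alone was thus much more common than a call.

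The depth of the falls, more than their number, rested on Ku70 F. The median log2 fold change was 1.5 among rises and -1.79 among falls. At least 4-fold changes numbered 210 rises and 459 falls with all libraries, and 217 rises and 356 falls without Ku70 F. Changes of at least 32-fold numbered 25 rises and 81 falls with all libraries, but 25 rises and 28 falls without Ku70 F. The count of very large rises therefore did not move with that library, and the count of very large falls did. Scaling mattered as well: with library totals in place of TMM factors, 486 genes rose and 1665 fell, the share of rises among calls was 22.6% instead of 43.1%, and the median of all tested genes moved to -0.34 from -0.03 on the log2 scale.

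**Figure D2:**
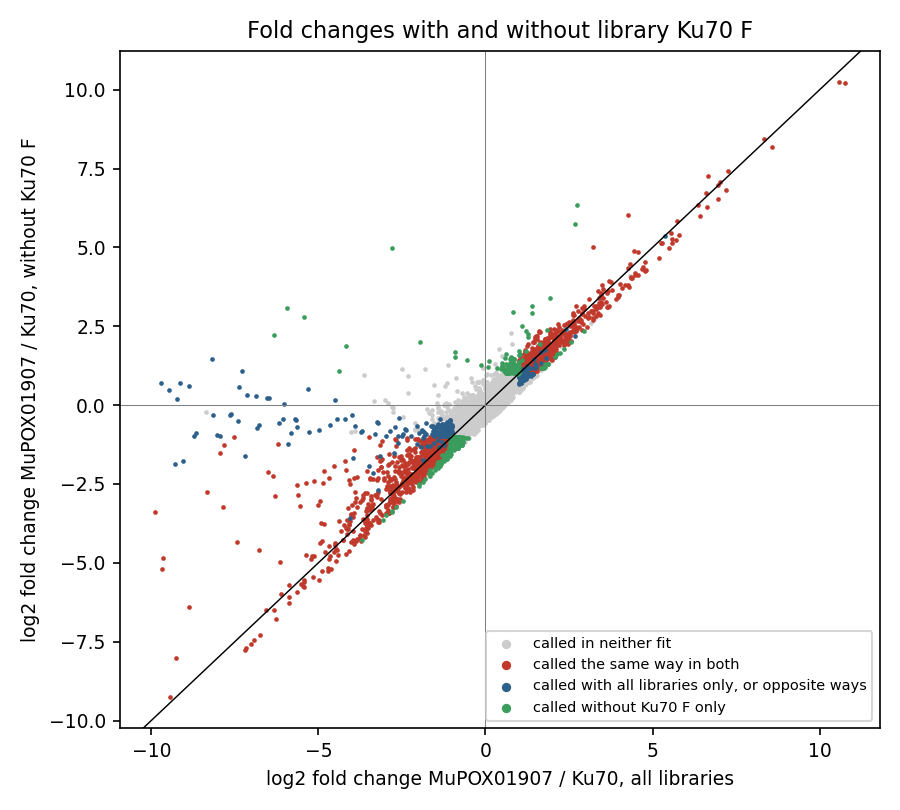
Log2 fold change of MuPOX01907 over Ku70 for each tested gene with all libraries (horizontal axis) and without Ku70 F (vertical axis), with the line of equal values drawn and points coloured by the fits that called them. Rises lie along the line, while a group of falls reaching below -5 on the horizontal axis lies near 0 on the vertical axis.

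The share of genes that rose was highest among abundant transcripts, and the share that fell was highest among scarce ones. Tested genes were grouped by their mean FPKM over the MuPOX01907 and Ku70 libraries. Of 176 genes at 1000 FPKM or more, 44 rose (25%) and 11 fell (6.25%). Of 1400 genes from 100 to 1000 FPKM, 247 rose (17.6%) and 124 fell (8.86%). Between 10 and 100 FPKM, where most genes lay, 360 of 4934 rose (7.30%) and 467 fell (9.47%). Among 1999 genes from 1 to 10 FPKM the order was the opposite of that in abundant genes, with 153 rises (7.65%) and 446 falls (22.3%). The remaining 80 genes, under 1 FPKM, had 4 rises and 18 falls. Over all genes in a class, the log2 fold change had a median of -0.37, -0.02, 0.33 and 0.73 from the 1 to 10 FPKM class up to the most abundant.

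The same gradient was present without Ku70 F. Of 189 genes at 1000 FPKM or more, 52 rose and 9 fell, and of 2126 genes from 1 to 10 FPKM, 163 rose and 459 fell. With library totals alone the class medians were -0.68, -0.33, 0.01 and 0.42, so their order was kept while the sign in the 10 to 100 FPKM class was negative in both scalings. Under that scaling 24 of the 176 most abundant genes rose and 14 fell, against 104 rises and 657 falls among the 1999 genes from 1 to 10 FPKM. Between 100 and 1000 FPKM the balance turned, with 147 rises (10.5%) and 181 falls (12.9%). The mean level that defines a class includes the libraries compared, so the classes are a description and not an independent test.

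**Figure D3:**
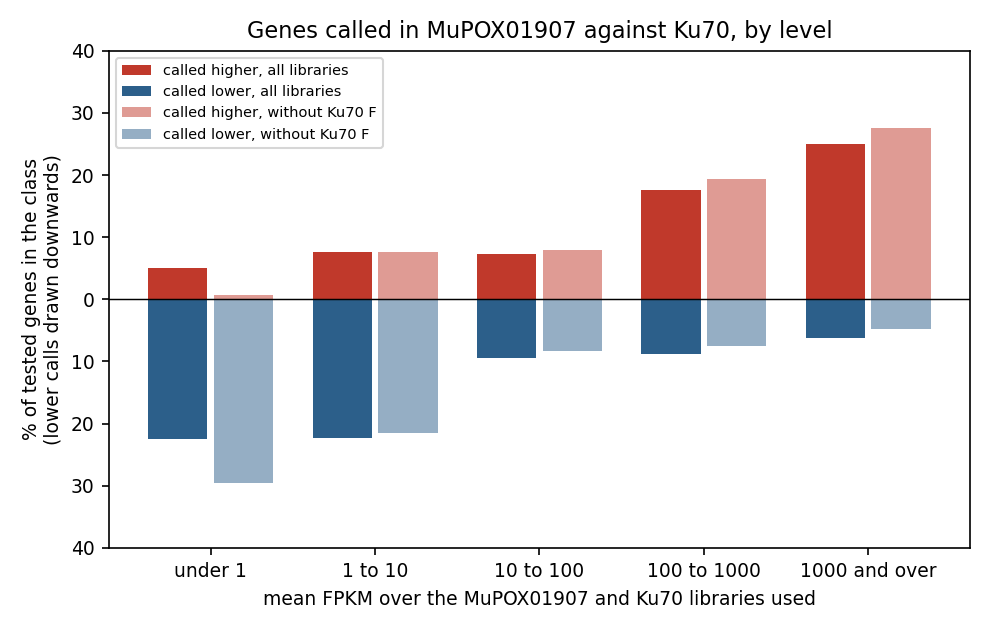
Percent of tested genes called higher (drawn upwards) or lower (drawn downwards) in MuPOX01907 against Ku70, by mean FPKM class, with all libraries (dark bars) and without Ku70 F (light bars). The higher bars are tallest at 1000 FPKM and over, at 25% and 27.5%.

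The called genes took up very different parts of the libraries. The 808 genes that rose held 29.7%, 29.6% and 31.3% of all counts in MuPOX01907 F, S and T, against 8.69%, 10.2% and 11.6% in Ku70. In MuPOX08340 they held 13.7% ± 0.362 (SD, n = 3), nearer Ku70 than MuPOX01907 but above every Ku70 library. The 1066 genes that fell held 2.60%, 2.63% and 2.24% in MuPOX01907, against 24.6%, 13.4% and 11.6% in Ku70. MuPOX08340 lay between, at 7.31% ± 0.481 (SD, n = 3). Ku70 F was the highest of the control libraries there. Among the 842 genes called lower both with and without Ku70 F, that excess was gone: they held 1.90% ± 0.189 in MuPOX01907, 5.89% ± 0.358 in MuPOX08340 and 11.3% ± 0.766 in Ku70 (SD, n = 3 each). The genes were chosen by the same contrast, so these shares carry no test. Shares of RNA in whole mycelium do not tell less RNA per cell from fewer cells of a kind.

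**Figure D4:**
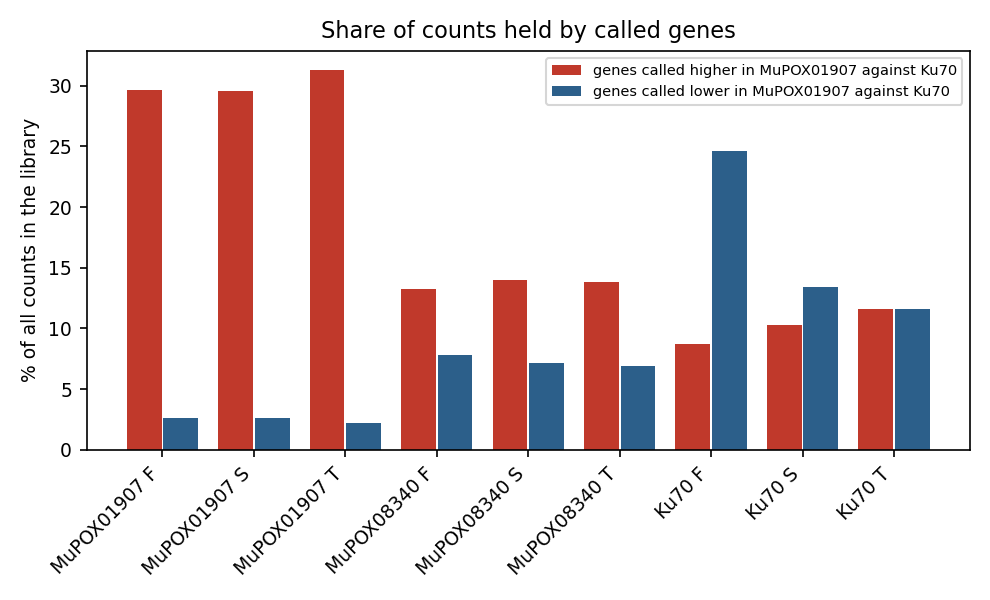
Percent of all counts held by the genes called higher and the genes called lower in MuPOX01907 against Ku70, in each of the 9 libraries. The higher genes hold 29.6% to 31.3% in MuPOX01907 and 8.69% to 11.6% in Ku70, and the lower genes hold more in Ku70 F than in any other library.

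MuPOX08340 is labelled with the same starch medium as MuPOX01907, so its level at the called genes was compared with both strains. For 667 of the 808 rises (82.6%) and 689 of the 1066 falls (64.6%), the mean log2 CPM of MuPOX08340 lay nearer Ku70 than MuPOX01907. Among calls kept without Ku70 F, and set against Ku70 S and T, this held for 612 of 705 rises (86.8%) and 616 of 842 falls (73.2%). The median difference from Ku70 over the rises was 1.51 in MuPOX01907 and 0.23 in MuPOX08340 on the log2 scale. Over the falls it was -1.69 in MuPOX01907 and -0.53 in MuPOX08340. The genes were selected for a large difference between MuPOX01907 and Ku70, so part of this placement follows from the selection, and the part that the stated medium has in the calls was not tested.

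The largest rises came from neighbouring gene IDs. POX08689 had 9050, 8441 and 8654 FPKM in MuPOX01907, against 0.31, 5.91 and 12.79 FPKM in Ku70. Its log2 fold change was 10.76 ± 1.19 (SE), with an edgeR adjusted p of 0.000268, and 10.20 with an adjusted p of 9.17e-07 without Ku70 F. In group mean FPKM it was 1375-fold higher, or 932-fold without Ku70 F. POX08688 had 819, 754 and 846 FPKM in MuPOX01907, against 0.34, 0.68 and 0.98 FPKM in Ku70. Its log2 fold change was 10.56 ± 0.461 (SE), with an edgeR adjusted p of 3.6e-06, and 10.26 without Ku70 F. Neither gene overlapped between the strains, and in MuPOX08340 they stayed at 4.0 to 4.97 and 0.80 to 1.23 FPKM. Against MuPOX08340, which carries the same starch label, the log2 fold changes of MuPOX01907 were 11.25 for POX08689 and 10.03 for POX08688, with edgeR adjusted p of 0.00022 and 3.68e-06.

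Both IDs belong to the longest run of consecutive IDs that all rose, POX08686 to POX08693. All 8 members were called with and without Ku70 F, with log2 fold changes from 6.61 to 10.76 and from 6.27 to 10.26. The median over the members was 901, 811 and 949 FPKM in MuPOX01907 F, S and T, and 6.53, 6.70 and 6.40 FPKM in MuPOX08340. In Ku70 it was 1.66, 6.90 and 9.77 FPKM. The least expressed member in MuPOX01907, POX08692, still had 264, 262 and 392.3 FPKM there. Together the 8 genes made up 3.94%, 3.64% and 4.14% of the counts in MuPOX01907 F, S and T, against 0.0152%, 0.0188% and 0.0235% in Ku70. Without Ku70 F the next ID, POX08694, was called as well, but its levels were unlike those of the 8. It had 2.71, 1.95 and 1.81 FPKM in MuPOX01907 and 50.8, 52.7 and 29.8 FPKM in MuPOX08340, against 2.29, 0.37 and 0.33 FPKM in Ku70.

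Runs of consecutive IDs were present among called genes in both directions. With all libraries, 336 of the 808 rises lay in 140 runs of at least 2 consecutive IDs, and 517 of the 1066 falls lay in 200 such runs. Without Ku70 F it was 373 rises in 155 runs and 448 falls in 181 runs. How many such runs the called shares of 9.41% and 12.4% would give by themselves was not computed. Of the 13 runs of 5 or more IDs with all libraries, 2 rose and 11 fell, and 9 of them kept every member without Ku70 F. The other long rise, POX07959 to POX07964, had 6 members with log2 fold changes from 1.5 to 5.26, and from 1.58 to 5.13 without Ku70 F. Its median was 260, 256 and 263 FPKM in MuPOX01907, against 74.8, 64.6 and 75.2 FPKM in Ku70. Positions of these IDs on chromosomes were not used here, so whether consecutive numbers mean adjoining genes was not tested.

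The longest run of falls was POX01166 to POX01184, and its depth rested largely on Ku70 F. All 19 members fell with all libraries, with log2 fold changes from -9.89 to -3.23 and a median of -7.84. The member median was 0.88, 0.93 and 0.86 FPKM in MuPOX01907, against 478, 2.24 and 3.27 FPKM in Ku70 F, S and T. Only Ku70 F was high. Without it 9 of the 19 were called lower, beside 11.8% of all tested genes, and the median log2 fold change was -1.02. The run was picked by its calls with all libraries, so this count is not an independent test. With Ku70 F kept, 4 were called lower when any MuPOX01907 library was left out, 5 with limma on log2(FPKM + 1) and 7 with the 6 libraries alone. DESeq2 gave no adjusted p for 15 of the 19 and called the other 4 lower. The last 4 IDs of the run, POX01181 to POX01184, were among those 9, with log2 fold changes from -6.40 to -3.40 without Ku70 F.

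A run of 6, POX01692 to POX01697, did not depend on Ku70 F. It is given as an example picked after its values were seen. The member median was 26.3, 27.1 and 20.5 FPKM in MuPOX01907 and 263, 232 and 180 FPKM in MuPOX08340, against 404, 505 and 552 FPKM in Ku70. Its log2 fold changes were -5.89 to -1.45, and -6.08 to -1.27 without Ku70 F. Ku70 F was the lowest control library by the run's share of counts, at 0.53% against 0.761% and 0.818% in Ku70 S and T, and MuPOX01907 held 0.0258%, 0.0237% and 0.0179%.

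**Figure D5:**
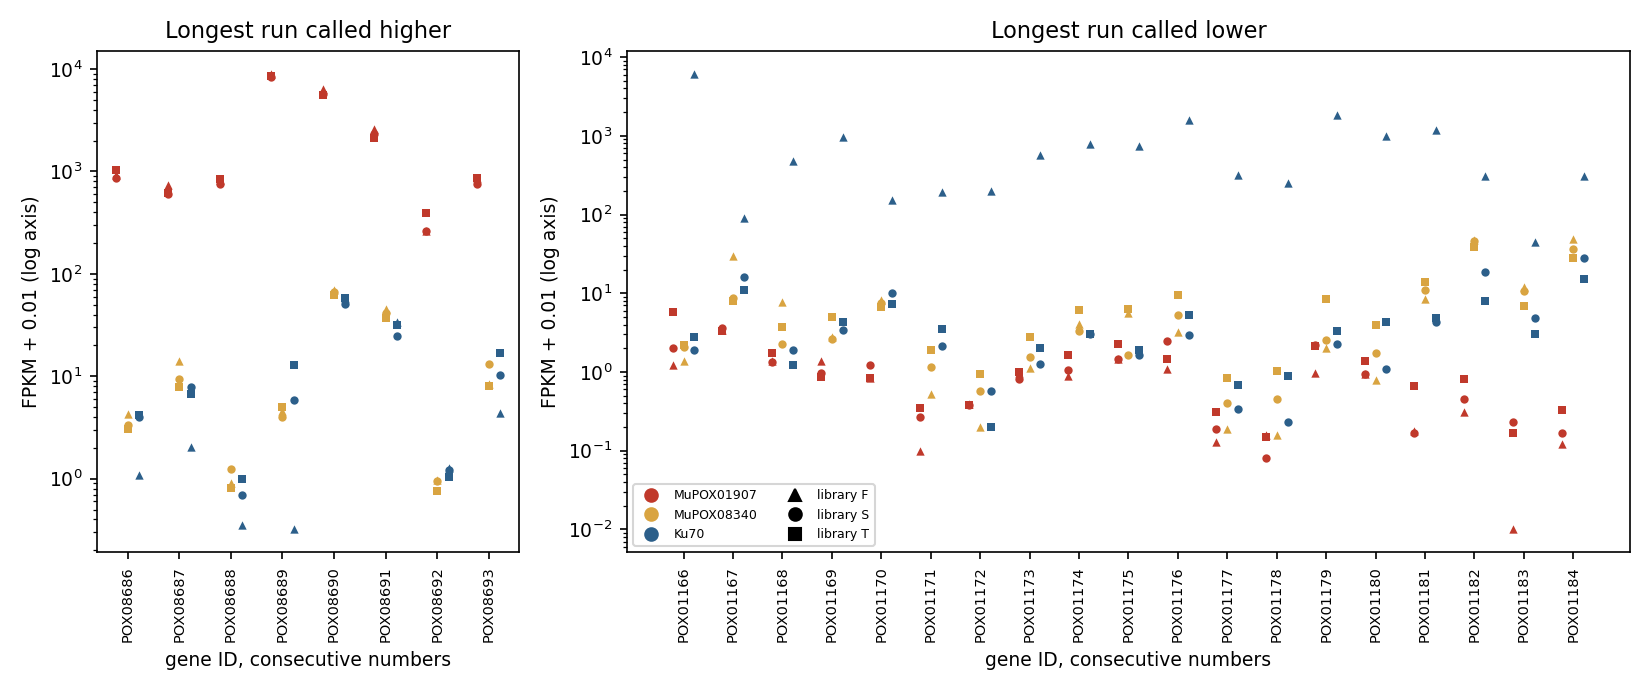
FPKM plus 0.01 on a log axis for each member of the longest runs of consecutive IDs called higher (left) and lower (right) in MuPOX01907 against Ku70, in each library of MuPOX01907, MuPOX08340 and Ku70. In the left panel all MuPOX01907 points stand apart from the other strains, and in the right panel the Ku70 F triangles stand apart from all other libraries.

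With all libraries, POX01181 and POX08897 were the deepest falls for which MuPOX01907 and Ku70 libraries did not overlap. POX01181 had 0.17, 0.16 and 0.65 FPKM in MuPOX01907, against 1190, 4.25 and 4.90 FPKM in Ku70 F, S and T. Its log2 fold change was -9.89 ± 2.63 (SE), with an edgeR adjusted p of 0.0169, and -3.40 with an adjusted p of 0.000773 without Ku70 F. The call ended with limma on log2(FPKM + 1), at an adjusted p of 0.0582, and when any of the MuPOX01907 libraries was left out, at an edgeR adjusted p of 0.059 to 0.0644 and log2 fold changes of -10.82 to -9.58. POX08897 had 0.06, 0.06 and 0.25 FPKM in MuPOX01907, against 391, 6.43 and 5.92 FPKM in Ku70. Its log2 fold change was -9.68 ± 2.15 (SE), with an edgeR adjusted p of 0.0076, and -5.19 with an adjusted p of 1.79e-05 without Ku70 F. In both genes MuPOX01907 lay below every Ku70 library, and the size of the fall was set by Ku70 F. MuPOX08340 had 8.53, 11.1 and 14.05 FPKM of POX01181 and 4.02, 4.52 and 4.83 FPKM of POX08897. Against MuPOX08340 the log2 fold changes were -4.69 and -4.72, with edgeR adjusted p of 0.197 and 0.12. The estimate of the spread in that fit includes Ku70 F.

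With Ku70 F left out, the deepest such fall after POX01907 itself was POX01188. It had 0.07, 0.13 and 0.07 FPKM in MuPOX01907, from 1, 2 and 1 expected counts, against 152, 36.7 and 24.8 FPKM in Ku70. MuPOX08340 had 18.0, 16.6 and 13.4 FPKM, so of the 3 strains MuPOX01907 was the one with almost no transcript. The log2 fold change was -9.25 ± 0.994 (SE), with an edgeR adjusted p of 0.000239, and -8.01 with an adjusted p of 1.85e-06 without Ku70 F. Against MuPOX08340 it was -7.05, with an edgeR adjusted p of 0.000883.

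Few genes appeared where Ku70 had next to none, and more disappeared. Taken as a called gene with a mean under 1 FPKM in one strain and at least 10 FPKM in the other, 7 genes were on in MuPOX01907 and 58 were off. The 7 had 13.3 to 846 FPKM in MuPOX01907 libraries, at most 1.70 FPKM in any MuPOX08340 library and at most 2.68 FPKM in any Ku70 library. Without Ku70 F, 8 were on and 27 were off, with 5 and 25 shared between the fits. Of the 58 that were off, 33 averaged under 10 FPKM in Ku70 S and T. The 25 that were off in both fits had medians of 0.64, 0.56 and 0.48 FPKM in MuPOX01907, against 20.6, 21.4 and 15.8 FPKM in Ku70. In MuPOX08340 their medians were 14.4, 11.9 and 12.1 FPKM, and 15 of the 25 averaged at least 10 FPKM there. The count of 58 was also smaller with limma on log2(FPKM + 1), at 36, with the 6 libraries alone, at 37, and when a MuPOX01907 library was left out, at 30 to 35. DESeq2 gave no adjusted p for 25 of the 58 and called the other 33.

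Genes that rose were shorter by median than the others. The effective length implied by count and FPKM had a median of 1081 bases in the genes that rose, 1300 bases in those that fell and 1240 bases in those not called. The lower quartiles were 536, 831 and 719 bases in the same order. Among calls kept without Ku70 F it was 1093 and 1230 bases for rises and falls.

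The 2 IDs of starch-degrading enzymes examined did not move together. The files pair no ID with a name, so the roles of the IDs in this paragraph and the next come from published work on strain HP7-1 of this fungus and were not checked against the files. POX01356, there a raw-starch-digesting glucoamylase, had 228, 206 and 194 FPKM in MuPOX01907, against 199.8, 404 and 121 FPKM in Ku70. The groups overlapped, with a log2 fold change of 0.10 ± 0.390 (SE), an edgeR adjusted p of 0.853, and -0.01 without Ku70 F. POX09352, there an alpha-amylase, fell, with 7.21, 6.81 and 3.98 FPKM in MuPOX01907 against 34.9, 46.2 and 23.3 FPKM in Ku70. Its log2 fold change was -2.23 ± 0.303 (SE), with an edgeR adjusted p of 0.000772, and -2.21 without Ku70 F. The regulator gene POX03446 (PoxRsrA) had 14.2, 12.5 and 12.8 FPKM in MuPOX01907 against 30, 22.03 and 24.5 FPKM in Ku70. Its log2 fold change of -0.64 was under the 2-fold minimum (edgeR adjusted p 0.0175), as was -0.49 without Ku70 F. Against MuPOX08340, the glucoamylase gene was higher in MuPOX01907 by 3.84 ± 0.438 (SE) on the log2 scale, with an edgeR adjusted p of 0.000296. Its level in MuPOX08340 was 23.75, 16.3 and 15.4 FPKM, below every Ku70 library. MuPOX08340 had 4.08, 3.95 and 4.26 FPKM of POX09352 and 15.5, 13.7 and 18.6 FPKM of POX03446. In MuPOX08340, too, both genes lay below every Ku70 library. For these genes MuPOX01907 minus MuPOX08340 was 0.89 and 0.06 on the log2 scale, with edgeR adjusted p of 0.0479 and 0.817.

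Genes of cellulose and xylan breakdown showed how far Ku70 F decides a call. Of 8 cellulase IDs, 7 fell with all libraries and none rose, beside falls in 12.4% of all tested genes. Without Ku70 F, 1 of the 8 fell and 1 rose, beside 11.8% and 9.98% of all tested genes, so the list's share was then near that of all genes. The list median was 1.66, 2.08 and 3.40 FPKM in MuPOX01907, against 1159, 2.52 and 2.28 FPKM in Ku70 F, S and T. The log2 fold change over the list had a median of -6.91 with all libraries and 0.43 when Ku70 F was left out, beside -0.03 and -0.02 over all tested genes. The 7 calls also came down to 1 under limma, in the fit of the 6 libraries alone and whenever any MuPOX01907 library was left out. The folds themselves stayed large when a MuPOX01907 library was left out, at -10.4 to -9.45 on the log2 scale for the cellulase ID POX05587. DESeq2 gave no adjusted p for 7 of the 8 IDs and called the remaining 1 lower. POX06835 was the cellulase ID that fell in both fits, with 10.1, 11.4 and 10.5 FPKM in MuPOX01907 against 52.9, 91.0 and 37.2 FPKM in Ku70 and a log2 fold change of -2.19 (-2.27 without Ku70 F). POX05571 was the only gene of the 8589 called in opposite directions, with a log2 fold change of -7.27 (edgeR adjusted p 0.0402) with all libraries and 1.07 (adjusted p 0.0209) without Ku70 F. The rise was not called with limma (0.48, adjusted p 0.0879) or library totals alone (0.73, edgeR adjusted p 0.0741) when Ku70 F was left out. DESeq2 without Ku70 F did call POX05571 higher (1.10, adjusted p 0.012). Its values were 2.0, 2.13 and 3.04 FPKM in MuPOX01907, against 1349, 1.08 and 1.78 FPKM in Ku70. Of 3 xylanase IDs, 2 fell with all libraries, beside 12.4% of all tested genes, and none fell under limma, with the 6 libraries alone, or with Ku70 F or any MuPOX01907 library left out. All 3 had no adjusted p in DESeq2. Without Ku70 F 1 rose: POX06783, with 70.1, 60.8 and 50.2 FPKM in MuPOX01907 against 827, 18.8 and 19.5 FPKM in Ku70 and a log2 fold change of 1.99 (edgeR adjusted p 4.8e-05).

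The most abundant transcripts of each strain behaved differently. POX05554, the highest in MuPOX01907, had 19954, 18582 and 17068 FPKM in MuPOX01907, against 17835, 25066 and 19606 FPKM in Ku70. The groups overlapped, and its log2 fold change of 0.15 ± 0.179 (SE) had an edgeR adjusted p of 0.544. Without Ku70 F the log2 fold change was 0.06, with an edgeR adjusted p of 0.783. POX09358, the highest in Ku70, had 4487, 5985 and 3785 FPKM in MuPOX01907, against 9257, 29076 and 28047 FPKM in Ku70. It fell, with a log2 fold change of -1.90 ± 0.402 (SE) and an edgeR adjusted p of 0.00621, and by 2.26 on the log2 scale without Ku70 F, the lowest control library for this gene. MuPOX08340 had less of it still, with 753, 665 and 525 FPKM.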

How the data were processed

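Expected counts (estimated reads per gene) and FPKM were deposited by the authors for each library, per the file headers. The tools named per the submitters' processing notes were RSEM 1.2.12, Bowtie2 2.1.0, DESeq2 and BWA 0.7.10-r789. What each did, the build, the annotation, the strandedness and the handling of reads shared by close copies were not given in the sources used here, so genes with close copies or overlapping neighbours are uncertain. FPKM as deposited were printed as levels and not rescaled. Expected counts were rounded and tested in R 4.3.3 with edgeR 4.0.16 (quasi-likelihood, TMM factors). Counts fit the unit, and the median of all genes differed between FPKM and counts scaled with TMM factors. TMM scaling itself draws that median towards 0, so the medians do not tell which scaling is right. All 9 libraries shared 1 estimate of the spread. Genes with a mean of at least 1 FPKM over the 9 libraries were tested (8589, with 1245 removed), with Benjamini-Hochberg adjustment over them. Standard errors were taken from the fold change and its F statistic. A call needed an adjusted p under 0.05 and a log2 fold change of at least 1 in size. Limma 3.58.1 on log2(FPKM + 1) and log2(FPKM + 0.1), DESeq2 1.42.0, other scalings and filters, a replicate block and leaving out each library were alternatives. The edgeR fit was tested on simulated data in which all libraries had the same spread. No simulated library deviated as Ku70 F does, so its effect was not covered. No label names separate cultures, so the spread between libraries, which is all the p-values measure, may be technical. No 2 libraries of MuPOX01907, nor of Ku70, agreed within counting noise. Genes without an adjusted p in DESeq2 were not counted as lost calls. DESeq2 gave an adjusted p for 8493 genes with all libraries and for 8589 with Ku70 F left out. The reason for the missing values was not tested. The genes named were those in the labels, IDs recalled from the literature, the 2 largest rises and the 2 largest falls with at least 10 FPKM in the higher strain and no overlap between libraries, their counterparts without Ku70 F, and the most abundant ID of each strain. Members and lists were chosen with earlier results of these data known. Of the 9834 IDs, 0 matched the RefSeq gene table at hand.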

Additional observations from a re-analysis of the deposited data

How the results depend on the processing

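Counts of rises moved by more than 1.5 times under 5 alternatives: 486 with library totals alone, 485 with limma on log2(FPKM + 1), 521 with limma on log2(FPKM + 0.1), and, with Ku70 F left out, 478 with limma and 506 with library totals. Falls moved past that limit with library totals alone, to 1665, and to 1661 with Ku70 F left out. The medians of all genes were -0.34 with library totals and -0.29 with limma, against -0.03 with TMM factors, and the lower share of rises goes with that shift. Leaving out 1 library gave 699 to 934 rises and 784 to 1179 falls. With the 6 libraries of MuPOX01907 and Ku70 alone, 745 genes rose and 904 fell. Letters F, S and T did not pair the libraries: deviations of MuPOX01907 and Ku70 libraries with the same letter correlated at -0.07, -0.04 and 0.06. With the replicate block 854 genes rose and 963 fell, and 1 cellulase ID, 0 xylanase IDs and 6 of the 19 IDs of POX01166 to POX01184 were called lower, and POX01181 had an adjusted p of 0.0602 (edgeR). For 16 named genes, 240 of 283 alternative values kept direction and call, 19 kept direction but lost the call and 24 changed sign. Of the cellulase and xylanase IDs, only POX05587, POX05571, POX06835 and POX06783 were in this tally. The log2 fold changes of the others ranged from -9.22 to -1.54 with all libraries. Without Ku70 F they ranged from -0.49 to 1.45. POX01356, never called, was -0.20 with library totals, -0.03 with limma at either pseudocount, -0.08 and -0.33 with limma and library totals when Ku70 F was left out, and -0.23 to 0.65 with 1 library left out. POX05554, also never called, was -0.17 with library totals, -0.16 with limma at either pseudocount, and -0.26 and -0.27 with limma and library totals without Ku70 F. With Ku70 F left out in limma, DESeq2 and library totals, POX05587 was 0.13, 0.74 and 0.37, POX05571 was 0.48, 1.10 and 0.73, and POX06783 was 1.59, 2.02 and 1.66. With 1 library left out, POX05587 ranged from -10.40 to 0.71, POX05571 from -7.92 to 1.07 and POX06783 from -2.58 to 1.99. The limits are 3 libraries per strain, a control library that differs from its group, and a strain that goes together with its stated medium. Genes under 1 FPKM rest on few counts, and their fold changes depend on the prior count.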
